A study of Mus musculus with 36 samples.

Results

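The 9 complement genes C1qa, C1qb, C1qc, C3, C4b, C3ar1, C5ar1, Cfb and Masp1 were followed through a bulk RNA-seq experiment on mouse macrophages and glioma cells. They were taken by gene symbol from a table of 29883 genes, and all 9 were present. The table holds 36 libraries in 12 groups of 3. Bone-marrow derived macrophages, sorted as dTomato-positive cells, were grown together with tumour cells (co-culture) or alone (mono-culture). The tumour cells, of the line PDG-Ink4a Recurrent, were likewise grown with macrophages or alone. Each of these 4 cell and culture combinations was sampled 0, 6 and 24 h after myelin debris was added, and the 0 h cultures are labelled as controls. No culture without myelin was sampled at 6 or 24 h. Changes after myelin, as named below, thus cannot be told apart from changes with time in culture. The line comes from a recurrent glioma of a mouse model in which platelet-derived growth factor b is expressed in Nestin-positive progenitors on an Ink4a/Arf-null background, a state that all 18 tumour cell libraries share. A single line was used, so results on tumour cells describe that line. The series asks how macrophages that take up myelin and glioma cells act on each other.

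Complement is a cascade of proteins that tags cells, debris and microbes. C1q, built from the products of C1qa, C1qb and C1qc, starts the classical pathway by binding antibody, dying cells or debris, and C4 and C3 are then cleaved in turn. The lectin pathway starts from sugar-binding proteins with MASP proteases, and factor B amplifies cleavage of C3 in the alternative pathway. The small fragments C3a and C5a act through the receptors C3aR and C5aR1 on myeloid cells. Most complement proteins of the blood come from the liver, whereas C1q comes largely from macrophages and other myeloid cells, in the brain from microglia.

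Library totals lay between 7911378 and 15319104 counts, with a median of 12262573. All 10 macrophage markers were detected in all 18 macrophage libraries, with summed levels of 14055 to 22015 CPM (CPM, counts scaled to the library's TMM-adjusted total). In the tumour cell libraries numbered 001 the same 10 genes summed to 13.7 to 24.5 CPM, against 247 to 1681 CPM in those numbered 002 and 003, where all 10 were detected. Of the glioma markers, Sox2, Sox9, Pdgfra, Cspg4 and Col4a1 were detected in the tumour cells, whereas Ptprz1, Bcan and Ncan were at or near 0. Nes had a mean of 30.0 CPM in mono-cultured tumour cells at 0 h, below its 65.2 CPM in mono-cultured macrophages. The 9 glioma markers in the table summed to 1685 to 3154 CPM in the tumour cell libraries. Fibroblast markers (Col1a1, Col1a2, Dcn, Lum and Pdgfrb) summed to 12628 to 21008 CPM there. What that signal comes from was not tested. Libraries 001 also stood apart among the macrophages. Xist, transcribed in female cells, was at 0 in the 6 macrophage libraries 001 and at 535 to 1236 CPM in the other 12, and the gene listed as CT010467.1 took 4.08 to 17.4% of the counts in those 6 and 0.391 to 1.22% in the others. Nothing in the labels tells whether the 3 libraries of a group had separate sources, so p-values measure the spread between these libraries only. In a bulk library, fewer cells of a kind and less RNA per cell cannot be told apart.

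At 0 h in mono-cultured macrophages, C1qb stood highest per kilobase of exon, at 283 CPM per kb, above C5ar1 at 251 and C3ar1 at 249, and the ranges of these 3 genes overlapped. C1qc and C1qa followed at 94.5 and 74.8 CPM per kb, and C3, the central component, at 5.59. The libraries of C1qc and C1qa overlapped as well. C4b was at 0.0247 CPM per kb, and Masp1 and Cfb were lower still. In the mono-cultured tumour cells at 0 h, Masp1 led at 46.4 CPM per kb, with C1qa at 12.0, C1qb at 12.0, C1qc at 4.47, C3ar1 at 3.24, C5ar1 at 2.37, C3 at 0.522 and C4b at 0.137. Cfb, which encodes factor B, had 3 counts in all 36 libraries together, 1 in each of 3 libraries. A count of 0 allows up to 0.196 to 0.379 CPM depending on the library (3 counts of its total, counting error only), so Cfb was not detectable above that level.

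The C1q chains were higher in macrophages grown with tumour cells than in those grown alone at 24 h, and C1qa and C1qb also at 0 h, by the tests given below. Their genes lie side by side on chromosome 4 (mm10), all on the minus strand: C1qb (ENSMUSG00000036905) at chr4:136880129-136886187, C1qc (ENSMUSG00000036896) at chr4:136889804-136893065 and C1qa (ENSMUSG00000036887) at chr4:136895917-136898803. Promoters of 5 of the 9 genes were found in a RefSeq table (GRCm38.p6). Those of C1qb (chr4:136886151-136886450, minus strand) and C1qc (chr4:136892865-136893164, minus strand) are shown because the levels of both genes ran closely together over the macrophage libraries. That of C5ar1 (chr7:16259289-16259588, minus strand) is shown because C5ar1 was called lower 24 h after myelin. No C1q chain was called in that fit, which does not show that none fell. Each window runs from 250 bases before the start set by the RefSeq table to 50 after it, read along the gene's strand. For C1qc and C5ar1, the gene coordinates used here start at 136893065 and 16259540, inside the windows. Those windows thus do not hold the 250 bases before these coordinates. Capitals mark GAGGAA, the core bound by the myeloid factor PU.1, or its reverse complement TTCCTC.
C1qb: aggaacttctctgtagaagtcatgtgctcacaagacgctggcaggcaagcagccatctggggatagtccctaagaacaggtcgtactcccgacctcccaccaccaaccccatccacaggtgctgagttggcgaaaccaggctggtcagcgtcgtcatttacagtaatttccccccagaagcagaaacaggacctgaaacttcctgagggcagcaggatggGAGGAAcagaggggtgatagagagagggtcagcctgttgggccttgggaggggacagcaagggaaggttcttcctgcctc
C1qc: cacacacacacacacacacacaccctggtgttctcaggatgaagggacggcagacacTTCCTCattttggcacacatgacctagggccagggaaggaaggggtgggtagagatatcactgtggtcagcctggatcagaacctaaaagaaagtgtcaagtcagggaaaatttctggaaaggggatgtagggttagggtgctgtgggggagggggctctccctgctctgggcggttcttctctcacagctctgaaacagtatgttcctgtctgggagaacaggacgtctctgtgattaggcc
C5ar1: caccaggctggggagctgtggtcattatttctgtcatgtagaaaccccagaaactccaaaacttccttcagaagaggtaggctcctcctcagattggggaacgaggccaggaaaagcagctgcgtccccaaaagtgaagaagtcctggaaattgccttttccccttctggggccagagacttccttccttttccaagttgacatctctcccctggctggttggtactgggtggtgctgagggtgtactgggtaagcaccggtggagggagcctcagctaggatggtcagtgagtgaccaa
Counted from the start set by the RefSeq table, the C1qb promoter held 1 copy on the gene's strand at position -30. The C1qc promoter held 1 copy on the opposite strand at position -193, counted likewise. The C5ar1 window holds no copy. The same search on both strands found the core in 28.3% of 32851 RefSeq promoters of the same length, so its presence is common, and it does not overlap TATAAA, the other motif searched on both strands. TATAAA (13.6% of promoters) was found in the C3 and C3ar1 windows only.

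Before myelin, macrophages from co-culture held more C1q mRNA than those grown alone. C1qa was at 302, 226 and 281 CPM in co-cultured macrophages, against 50.7, 59.8 and 123 CPM in mono-cultured ones (libraries 001, 002 and 003 in that order, here and below), and the groups did not overlap. Of all 13165 genes tested, 31.8% did not overlap between these groups. The log2 difference of C1qa was 1.70 ± 0.51 (SE, edgeR quasi-likelihood adjusted p = 0.039). C1qb was at 725, 726 and 732 CPM in co-culture, closely grouped, against 221, 299 and 403 CPM alone, a difference of 1.15 ± 0.34 (edgeR adjusted p = 0.0352). C1qc was at 428, 368 and 403 CPM in co-culture and 136, 169 and 243 CPM alone, which did not overlap, yet its difference of 1.04 ± 0.35 missed the threshold (edgeR adjusted p = 0.0649); with the library number as a block it passed, at 1.08 ± 0.31 (adjusted p = 0.0304), and it also passed by DESeq2 (adjusted p = 0.0439) and in the compared groups alone (0.0139). Of the 7 members tested in macrophages, 3 were called higher and none lower at 0 h, C1qa, C1qb and Masp1, while 7.69% of the 13165 genes tested were called higher. Masp1 passed the low-count filter only through its co-culture libraries, so its call adds no support to this count. The calls of C1qa and C1qb were each lost in 5 of the 6 fits that left out 1 library, with adjusted p-values up to 0.138 and 0.132.

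At 24 h after myelin all 3 chains passed the test. C1qa was at 425, 225 and 267 CPM in co-cultured macrophages, against 23.6, 49.8 and 89.3 CPM in mono-cultured macrophages. Every co-culture library lay above every mono-culture library, and library 001 held both the highest value in co-culture and the lowest alone. The log2 difference of C1qa was 2.39 ± 0.52 (edgeR adjusted p = 0.00371). Of all 13165 genes tested, 42.8% did not overlap between these groups. C1qb had 1212, 956 and 914 CPM in co-culture, against 190, 326 and 575 CPM alone, a log2 difference of 1.40 ± 0.34 (edgeR adjusted p = 0.00707), again with no overlap. C1qc had 755, 512 and 512 CPM in co-culture and 112, 191 and 342 CPM alone, a log2 difference of 1.36 ± 0.36 (edgeR adjusted p = 0.0102). Altogether 5 of the 7 members tested were called higher in co-culture at 24 h and none lower, against 14.3% of all genes called higher. Masp1, 1 of these 5, again passed the low-count filter only through co-culture. These C1q calls held in all 6 fits with 1 library left out. Without the libraries 001, the C1qa difference was 1.73 (adjusted p = 0.0921), that of C1qb 0.95 (adjusted p = 0.0862) and that of C1qc 0.84 (adjusted p = 0.176), so none of the 3 calls held. At 0 h the same fit gave 1.37 for C1qa (adjusted p = 0.217) and 0.95 for C1qb (adjusted p = 0.125).

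At 6 h the values lay the same way without passing the test. C1qa was at 281, 159 and 334 CPM in co-culture and 51.6, 60.9 and 172 CPM alone, so that 1 mono-culture library exceeded 1 co-culture library (log2 difference 1.34 ± 0.50, edgeR adjusted p = 0.118). C1qb was at 832, 665 and 906 CPM in co-culture and 242, 320.1 and 611 CPM alone, without overlap (0.93 ± 0.34, edgeR adjusted p = 0.103). Between the cultures, 27.3% of all genes tested did not overlap at 6 h. C1qc differed by 0.82 ± 0.35 (edgeR adjusted p = 0.172). At this time Masp1 was the 1 member called, where 5.81% of genes were called higher, and it passed the low-count filter only through co-culture. Among the macrophage markers, the 10 genes summed to 18674 to 22015 CPM in co-culture and 14055 to 17714 CPM alone. Lyz2, the gene of lysozyme, made up that gap, at 10407 to 13527 CPM in co-culture and 6493 to 8922 CPM alone. The other 9 markers summed to 7783 to 8898 CPM in co-culture and 7330.1 to 9707 CPM alone, which overlapped. Some of them had lower means in co-culture, such as Ptprc (623 CPM against 888 CPM alone at 0 h) and Tyrobp (642 CPM against 929.5 CPM alone at 24 h). The part of these marker differences in the C1q differences was not tested.

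**Figure D1:**
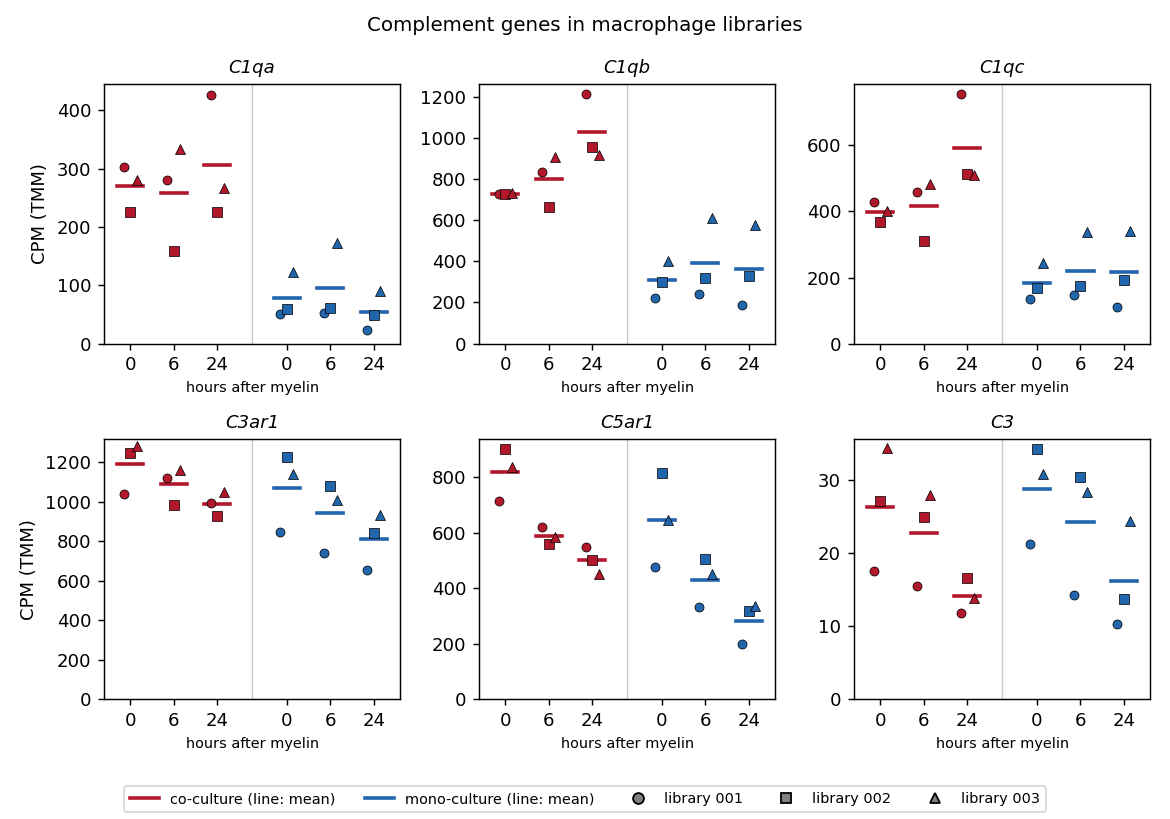
Level of 6 complement genes in each macrophage library, in CPM after TMM scaling on a linear axis from 0, by hours after myelin, with co-culture left (red) and mono-culture right (blue). Symbols are the 3 libraries of a group and lines their mean. C1qa at 24 h lies between 225 and 425 CPM in co-culture and between 23.6 and 89.3 CPM in mono-culture, and C5ar1 declines with time in both cultures.

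In the fit of all macrophage libraries, no C1q chain passed the threshold at 6 or 24 h after myelin against 0 h, in either culture. In mono-cultured macrophages the log2 change at 24 h was -0.56 ± 0.51 for C1qa (edgeR adjusted p = 0.521), 0.20 ± 0.34 for C1qb (0.756) and 0.20 ± 0.35 for C1qc (0.771). In co-cultured macrophages it was 0.13 ± 0.49 for C1qa (edgeR adjusted p = 0.901), 0.45 ± 0.34 for C1qb (0.434) and 0.52 ± 0.35 for C1qc (0.374). In co-culture the 24 h values of C1qb and C1qc lay above all 3 of their 0 h values. Of all genes tested, 32.1% did not overlap there, in either direction. In the compared groups alone C1qb passed there, at 0.44 ± 0.12 (edgeR adjusted p = 0.0434), whereas C1qc did not, and neither passed in any of the other settings or with 1 library left out. At 6 h, changes of the 3 chains were between -0.07 and 0.35 in both cultures, with adjusted p-values of 0.673 or more. The difference between the cultures in the 24 h myelin change was 0.69 ± 0.71 for C1qa, 0.24 ± 0.48 for C1qb and 0.32 ± 0.49 for C1qc, and no member was called there (edgeR, 2 of 13165 genes called, 0.0152%, and no member with an unadjusted p under 0.05). These intervals leave room for changes in either direction.

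The 3 chains are assembled together, yet their mRNAs did not keep 1 ratio. The count of C1qb relative to that of C1qa was between 6.43 and 8.05 in mono-cultured macrophages at 24 h, against 3.28 to 4.99 at 0 h. In co-culture it was 2.85 to 4.24 at 24 h, against 2.40 to 3.21 at 0 h. The co-culture libraries lay below the mono-culture libraries at 0 h and at 24 h, and overlapped them at 6 h (2.71 to 4.19 in co-culture, 3.55 to 5.26 alone). In each of these non-overlapping comparisons the exact 2-sided permutation p was 0.1, the smallest that 3 libraries against 3 can give, and 0.156 after adjustment over 14 ratio comparisons. The ratio is taken within a library, so scaling between libraries does not enter it.

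**Figure D2:**
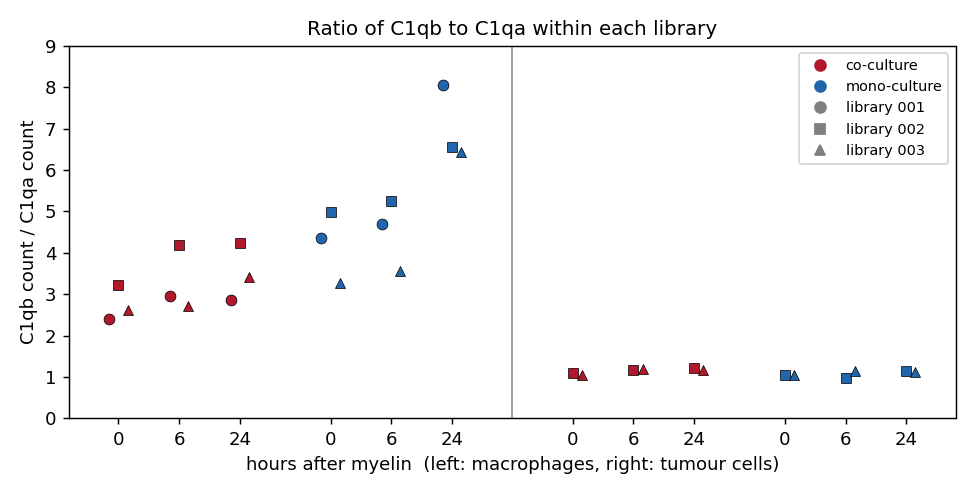
Count of C1qb divided by the count of C1qa within each library with at least 20 C1qa counts, by hours after myelin, macrophages left and tumour cells right, co-culture in red and mono-culture in blue. Macrophage libraries lie between 2.40 and 8.05 and tumour cell libraries between 0.968 and 1.21.

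Of the receptors for the cleavage fragments, C5ar1 fell 24 h after myelin in both cultures, and C3ar1 passed the test in mono-culture alone. C5ar1 (ENSMUSG00000049130, chr7:16246743-16259540), the receptor of C5a on myeloid cells, was at 198, 317 and 336 CPM 24 h after myelin in mono-cultured macrophages, against 476, 816 and 644 CPM at 0 h. The groups did not overlap, as was so for 27.4% of all genes tested, and the log2 change was -1.22 ± 0.19 (edgeR adjusted p = 0.000717). This call held in all 7 other settings and all 6 fits with 1 library left out. In co-culture C5ar1 was at 550, 503 and 453 CPM at 24 h, against 714, 901 and 838 CPM at 0 h, again without overlap (as for 32.1% of all genes tested), a log2 change of -0.75 ± 0.18 (edgeR adjusted p = 0.0156). That call was lost without library 002 or 003 of either group, with adjusted p-values of 0.0698 and 0.0526 for the 0 h libraries and 0.0551 and 0.0744 for the 24 h libraries. At 6 h the mono-cultured macrophages had 331, 505 and 453 CPM (change -0.58 ± 0.18, edgeR adjusted p = 0.123) and the co-cultured ones 621, 560.3 and 586 CPM (-0.48 ± 0.18, adjusted p = 0.288), between the values at 0 and 24 h. Without the libraries 001 both 6 h changes passed, at -0.63 (adjusted p = 0.00952) alone and -0.59 (adjusted p = 0.0361) in co-culture. The difference between the cultures in the 24 h change was 0.46 ± 0.26 (edgeR adjusted p = 0.745), so a smaller fall in co-culture was not shown.

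C3ar1 (ENSMUSG00000040552, chr6:122847138-122856161), the C3a receptor, was at 653 to 1283 CPM in all macrophage libraries. At 24 h in mono-culture it was at 653, 841 and 934 CPM, against 845, 1225 and 1139.6 CPM at 0 h. The groups overlapped, and the log2 change of -0.43 ± 0.14 passed narrowly (edgeR adjusted p = 0.046). It did not pass with no low-count filter or in the compared groups alone (adjusted p = 0.108). It was also lost without library 002 or 003 of the 0 h group (adjusted p = 0.21 and 0.139) and without library 001 or 002 of the 24 h group (adjusted p = 0.13 and 0.0652). In co-culture C3ar1 was at 991, 926 and 1049.7 CPM at 24 h and 1036, 1244 and 1283 CPM at 0 h, a change of -0.32 ± 0.14 that did not pass (edgeR adjusted p = 0.155). Thus 2 of the 7 members tested were called lower at 24 h in mono-culture, where 7.61% of genes were, and 1 of 7 in co-culture, where 6.02% were. None was called at 6 h, where edgeR called 2.15% of genes in mono-culture and 0.213% in co-culture. At an unadjusted p under 0.05, C5ar1 was the 1 member at 6 h in each culture.

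Between the cultures, C5ar1 was higher in co-cultured macrophages at 24 h. Its 3 co-culture libraries, at 453 to 550 CPM, lay above its mono-culture libraries, at 198 to 336 CPM (no overlap in 42.8% of all genes tested), and the log2 difference was 0.71 ± 0.18 (edgeR adjusted p = 0.00906), held in all 7 settings and all 6 fits with 1 library left out. At 0 h the difference was 0.25 ± 0.18 (edgeR adjusted p = 0.423) and at 6 h 0.35 ± 0.18 (adjusted p = 0.279). C3ar1 differed between the cultures by 0.06 to 0.18 at the 3 times, with adjusted p-values of 0.385 to 0.847. The count of C3ar1 relative to that of C5ar1 was 2.65 to 3.31 at 24 h and 1.50 to 1.78 at 0 h in mono-culture, and 1.80 to 2.32 at 24 h and 1.38 to 1.53 at 0 h in co-culture, without overlap in either (exact 2-sided permutation p = 0.1 each, the smallest possible, adjusted p = 0.156).

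**Figure D3:**
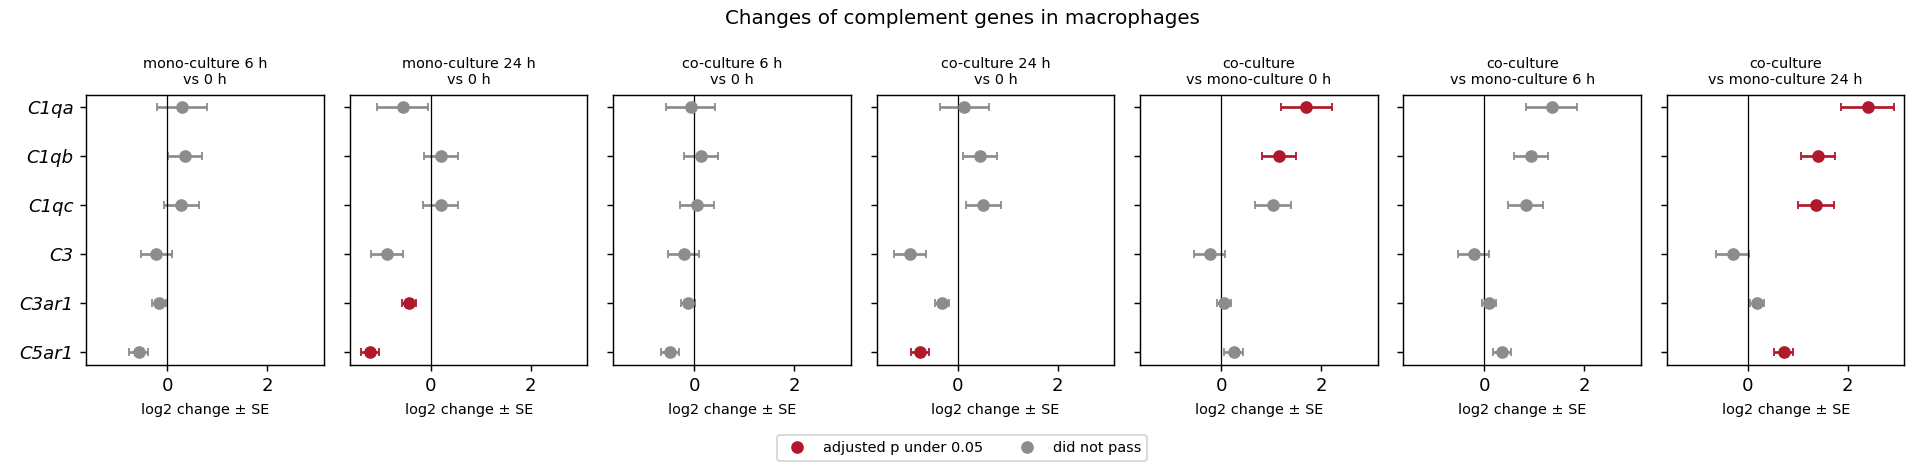
Log2 change of 6 complement genes in macrophages in 7 comparisons, as points with 1 SE, red where the edgeR adjusted p was under 0.05 and grey otherwise. C5ar1 lies left of 0 in all 4 myelin comparisons and the C1q chains lie right of 0 in all 3 comparisons of co-culture with mono-culture.

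C3 (ENSMUSG00000024164, chr17:57203970-57228136), whose product is cleaved by all 3 pathways, was low in macrophages. At 24 h it was at 10.3, 13.7 and 24.5 CPM in mono-culture, against 21.3, 34.2 and 30.8 CPM at 0 h. In co-culture it was at 11.8, 16.6 and 13.9 CPM at 24 h, against 17.5, 27.2 and 34.4 CPM at 0 h, and these did not overlap (as for 32.1% of all genes tested). The log2 changes of -0.88 ± 0.32 and -0.95 ± 0.32 missed the threshold (edgeR adjusted p = 0.0782 in mono-culture and 0.0695 in co-culture). With the library number as a block both passed, at -0.90 ± 0.17 (adjusted p = 0.00142) in mono-culture and -0.92 ± 0.17 (adjusted p = 0.00175) in co-culture. C3 differed between the cultures by -0.30 to -0.22 at the 3 times, with adjusted p-values of 0.542 or more. C4b, a classical pathway component, had at most 10 counts in any macrophage library and was not tested in those cells.

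Masp1 (ENSMUSG00000022887, chr16:23449417-23520815) encodes a protease of the lectin pathway. It was expressed mainly in the tumour cells, at 286 to 487 CPM in all 18 of their libraries. In mono-cultured tumour cells 24 h after myelin it was at 340.1, 354 and 286 CPM, against 443, 469.96 and 456 CPM at 0 h. The groups did not overlap, as was so for 34.2% of all genes tested, and the log2 change was -0.48 ± 0.11 (edgeR adjusted p = 0.0124). Without library 003 of the 24 h group, the lowest, it was -0.40 ± 0.11 (adjusted p = 0.0701). In co-cultured tumour cells Masp1 was at 386, 407 and 403 CPM at 24 h and 404, 487 and 457 CPM at 0 h, which overlapped (change -0.17 ± 0.11, edgeR adjusted p = 0.514). The difference between the cultures in that change was 0.32 ± 0.15 (edgeR unadjusted p = 0.0554, adjusted p = 1), and no gene was called there (0% of 13603, by edgeR). At 24 h the co-culture libraries lay above the mono-culture libraries (no overlap in 19.4% of all genes tested), by 0.29 ± 0.11 (edgeR adjusted p = 0.254), and without the libraries 001 that difference was 0.35 ± 0.09 (adjusted p = 0.00693).

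In macrophages, Masp1 was almost confined to co-culture. Co-cultured macrophages had 5.85, 18.8 and 12.7 CPM at 0 h, 4.55, 18.9 and 7.84 CPM at 6 h, and 18.2, 25.8 and 24.5 CPM at 24 h. The mono-cultured macrophages had 0 to 3 counts in each of their 9 libraries. From the summed counts, the level at 24 h was 117 times higher in co-culture (793 counts against 7, exact 95% interval 56.4 to 291, counting error only). By edgeR, Masp1 was called higher at 0, 6 and 24 h (adjusted p = 3.02e-05, 0.000119 and 8.31e-06). Masp1 passed the low-count filter through its co-culture libraries alone, so these calls add nothing to the counts themselves. Most detected markers of the tumour cells were also higher in co-culture. The 9 glioma markers found in the table summed to 123 to 255 CPM in co-cultured and 39.6 to 122 CPM in mono-cultured macrophages, of which 6 and 4 to 5 had counts. At 24 h Masp1 in co-cultured macrophages was at 5.73% of its mean in co-cultured tumour cells, and Sox2 was at 4.41%, Sox9 at 3.50%, Pdgfra at 4.91% and Col4a1 at 5.98%, while Cspg4 was higher, at 15.1%. At 0 h the share of Masp1 was 2.77%, with Sox2 at 1.99%, Sox9 at 3.77%, Pdgfra at 2.45%, Col4a1 at 3.41% and Cspg4 at 12.0%. At 6 h it was 2.51%, with 1.88% for Sox2, 2.56% for Sox9, 1.98% for Pdgfra, 2.46% for Col4a1 and 10.1% for Cspg4. Cspg4 had counts in mono-cultured macrophages too, at means of 18.4 to 32.9 CPM, against 70.0 to 78.3 CPM in co-culture. Nes did not follow the others: its mean in co-cultured macrophages was 54.1, 34.9 and 48.2 CPM at 0, 6 and 24 h, against 65.2, 51.6 and 34.1 CPM alone, and it was at 106 to 211% of its mean in co-cultured tumour cells. Within co-culture, Masp1 at 24 h against 0 h changed by 0.82 ± 0.40 (edgeR adjusted p = 0.197), and by 0.94 ± 0.22 with the library number as a block (adjusted p = 0.00693). The shares of Sox2, Pdgfra, Col4a1 and Cspg4 also stood higher at 24 h than at 0 h, whereas that of Sox9 stood lower (3.50% against 3.77%). In CPM, Cspg4 was at 70.0 at 24 h and 78.3 at 0 h. Ddx3y at 24 h was at 0 CPM in mono-cultured and 4.88 and 5.87 CPM in co-cultured macrophages 002 and 003. It was at 102 and 94.6 CPM in co-cultured tumour cells 002 and 003. Macrophages 001 held it in both cultures, at 73.6 CPM alone and 78.7 CPM in co-culture. At 24 h the fibroblast markers summed to 600 to 864 CPM in co-cultured and 4.16 to 22.4 CPM in mono-cultured macrophages. The part of tumour cell RNA in the Masp1 counts was not tested.

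**Figure D4:**
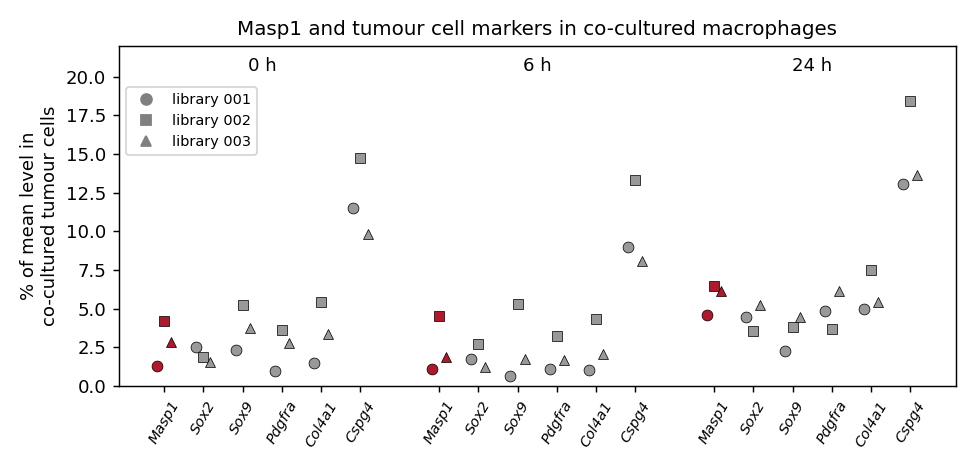
Level of Masp1 (red) and of 5 tumour cell markers (grey) in co-cultured macrophage libraries, as a percentage of the gene's mean in co-cultured tumour cells of the same time. At 24 h the mean is 5.73% for Masp1, between 3.50% and 5.98% for Sox2, Sox9, Pdgfra and Col4a1, and 15.1% for Cspg4. Nes, at 106 to 211%, is not drawn.

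C4b (ENSMUSG00000073418, chr17:34728380-34743882) encodes a C4, the substrate of the classical and lectin pathway proteases. In mono-cultured tumour cells it had 14, 67 and 121 counts at 24 h, or 1.09, 4.93 and 8.47 CPM, against 3, 12 and 14 counts at 0 h, or 0.282, 0.953 and 1.11 CPM. Library 001 at 24 h lay within the 0 h range. The log2 change was 2.59 ± 0.74 (edgeR adjusted p = 0.0372), and it was lost in 5 of the 6 fits with 1 library left out, with adjusted p-values up to 0.162. In co-cultured tumour cells C4b was at 6.27, 2.37 and 2.74 CPM at 24 h and 0.830, 0.756 and 0.769 CPM at 0 h, which did not overlap (as for 16.9% of all genes tested), but the change of 2.26 ± 0.73 did not pass (edgeR adjusted p = 0.179). Without the libraries 001 it was 1.73 ± 0.37 (adjusted p = 0.00263), and C4b was then lower in co-culture than in mono-culture at 24 h by -1.38 ± 0.26 (adjusted p = 0.000803), where all 3 libraries gave -0.34 ± 0.66 (adjusted p = 0.887). C4a is a near-identical gene next to C4b, at 0.410 to 1.25 CPM in the tumour cells, and reads could have been split between the pair, so the values of C4b are uncertain. With Masp1, C4b made 2 of the 8 members tested in tumour cells that were called at 24 h in mono-culture, 1 in each direction, where 10.5% of genes were called.

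C3 in the tumour cells was uneven between libraries. In co-culture it was at 6.89, 8.39 and 9.46 CPM at 0 h and at 24.1, 6.34 and 10.1 CPM at 24 h. In mono-culture it was at 0.188, 3.10 and 4.76 CPM at 0 h and 0.466, 4.04 and 9.03 CPM at 24 h. The libraries 001, which had next to no macrophage marker signal in either culture, thus held 6.89 CPM in co-culture and 0.188 CPM alone at 0 h, and 24.1 CPM in co-culture and 0.466 CPM alone at 24 h. Over the 3 libraries the difference between co-culture and mono-culture was 1.60 ± 1.09 at 0 h (edgeR adjusted p = 0.865) and 1.59 ± 1.05 at 24 h (adjusted p = 0.555), and neither passed. No member was called between the cultures in tumour cells at any of the 3 times, where edgeR called 0% of genes at 0 h, 0% at 6 h and 0.0809% at 24 h. At an unadjusted p under 0.05 the 1 member was Masp1 at 24 h. DESeq2 called none either, while with the library number as a block C5ar1 was called at 0 h.

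**Figure D5:**
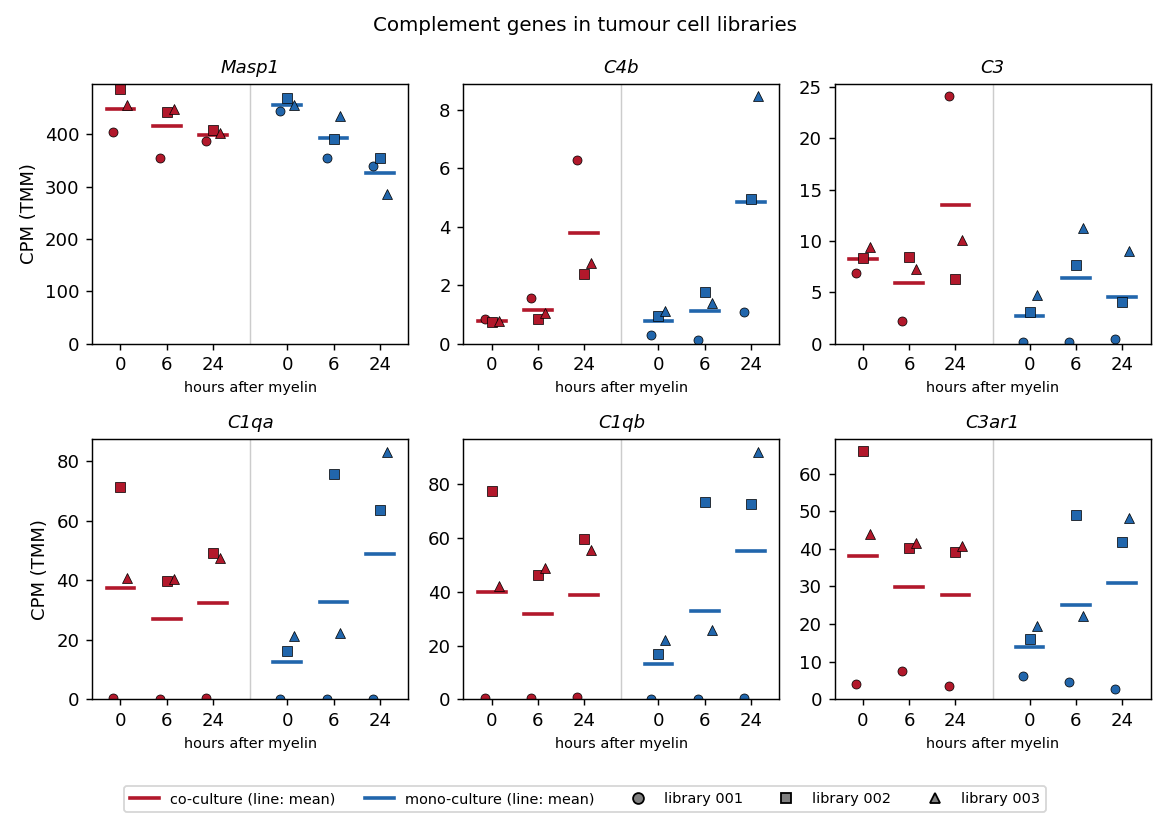
Level of 6 complement genes in each tumour cell library, in CPM after TMM scaling on linear axes from 0 that differ between genes, by hours after myelin, co-culture left and mono-culture right. Masp1 lies between 286 and 487 CPM throughout, while C1qa, C1qb and C3ar1 are near the axis in libraries 001 and higher in 002 and 003.

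C1q and receptor counts in the tumour cell libraries went with macrophage markers. In mono-cultured tumour cells at 24 h, C1qa was at 0.155, 63.6 and 83.2 CPM and the 10 macrophage markers summed to 15.5, 1302 and 1681 CPM. At 0 h C1qa was at 0.188, 16.2 and 21.1 CPM and the markers at 13.7, 247 and 329.6 CPM. In all 6 groups, C1qa, C1qb and C1qc had at most 12 counts in library 001 and 140 or more in libraries 002 and 003. C5ar1 showed the same split, with at most 6 counts in libraries 001 and 96 or more in the others. C3ar1 was split less sharply, at 2.80 to 7.63 CPM in libraries 001 and 16.1 to 66.0 CPM in the others. No member was called at 6 h, where edgeR called 0.00735% of genes in mono-culture and 0.0147% in co-culture, nor at 24 h in co-culture (0.787%), and none had an unadjusted p under 0.05 there except C4b at 24 h in co-culture. With the library number as a block, C1qa rose by 1.94 ± 0.39 at 24 h in mono-culture (adjusted p = 0.00273), C1qb by 2.07 ± 0.37 (0.00139), C1qc by 2.17 ± 0.44 (0.00281) and C5ar1 by 1.43 ± 0.38 (0.0138). In that fit C5ar1 was also higher in co-culture at 0 h, by 1.80 ± 0.38 (adjusted p = 0.0408). Without the block these differences missed the threshold, with adjusted p-values of 0.483 to 0.881.

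The C1q counts in the tumour cell libraries stood in other ratios than in the sorted macrophages. In the 12 tumour cell libraries with at least 20 C1qa counts, C1qb and C1qa stood at a ratio of 0.968 to 1.21 (median 1.13), below every macrophage library (2.40 to 8.05, median 3.87). The ratio of C1qc to C1qa was 0.604 to 0.869 there and 1.42 to 4.77 in the macrophages. At 24 h in mono-culture, mean C1qa in the tumour cell libraries was 90.3% of its mean in mono-cultured macrophages, whereas Csf1r was at 3.05%, Ptprc at 2.16%, Cd68 at 2.72%, Lyz2 at 10.3% and C5ar1 at 5.85%. Xist was also missing: libraries 002 and 003 of those tumour cells had 1 count each, against 1121 and 686 CPM in mono-cultured macrophages 002 and 003. What these differences come from was not tested.

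Before myelin, the 2 cell types grown alone differed in most members. Macrophages over tumour cells, C5ar1 was higher by 6.71 ± 1.54 on the log2 scale (edgeR adjusted p = 0.000395), C3ar1 by 6.25 ± 1.05 (9.17e-06), C1qb by 4.55 ± 1.59 (0.0135), C1qc by 4.38 ± 1.51 (0.0119) and C3 by 3.39 ± 0.78 (0.000386). Masp1 was lower in macrophages, with 1 count in their 3 libraries against 16371 counts in the tumour cells, and C4b was lower as well, with 5 counts against 29 (edgeR adjusted p = 1.08e-16 and 0.0235). C1qa differed by 2.62 ± 1.43 (edgeR adjusted p = 0.105) although its groups did not overlap, as was so for 71.7% of all genes tested. That made 7 of 8 tested members called, against 70% of the 14776 genes tested, so the share is not far from the background. The call of C4b was lost without library 003 of the macrophages (adjusted p = 0.0983) and without library 002 (0.0575) or 003 (0.09) of the tumour cells.

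Of 54 other complement genes listed, 45 were in the table, and 20 passed the low-count filter in macrophages and 26 in tumour cells. In co-cultured against mono-cultured macrophages at 24 h, 3 rose and 4 fell. Of all 13165 genes tested there, 3689 were called, 1880 of them higher. Cfp, which encodes properdin, a stabiliser of the alternative pathway convertase, was at 188, 217 and 124 CPM in co-culture and 32.4, 82.7 and 72.0 CPM alone (log2 difference 1.39 ± 0.29, edgeR adjusted p = 0.0028). The co-culture libraries all lay above the mono-culture ones, in a comparison where 42.8% of all genes tested did not overlap. The chains of the iC3b-binding integrins fell: Itgax by -1.76 ± 0.24 (edgeR adjusted p = 8.7e-05) and Itgb2 by -1.13 ± 0.12 (1.26e-05). Cr1l, a membrane regulator, fell by -0.24 ± 0.08 (adjusted p = 0.0242). C1s1 and Clu, the other 2 that rose, stayed under 2 CPM in macrophages.

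At 0 h, Itgb2 was lower in co-cultured macrophages, at -0.45 ± 0.12 (edgeR adjusted p = 0.0187), while C5ar2, the second C5a receptor, was higher by 0.69 ± 0.20 (adjusted p = 0.0298). In all, 3 of the 20 genes tested were called, and 6 were called with the library number as a block. Of all 13165 genes, 1806 were called, and 2561 with the block. At 6 h the 1 gene called was Itgb2, at -0.48 ± 0.12 (edgeR adjusted p = 0.0162), where 1308 of all genes tested were called. The medians of the 20 genes in the 3 comparisons between cultures were between -0.01 and 0.01, and those of all 13165 genes between -0.03 and -0.02.

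After 24 h of myelin, Calr, the gene of calreticulin, which binds C1q, rose in macrophages of both cultures, by 0.51 ± 0.12 in mono-culture (edgeR adjusted p = 0.0085) and 0.68 ± 0.12 in co-culture (0.00215). In mono-culture Megf10, a C1q receptor, was the other gene called (2 of 20, and 6 with the block). Of all 13165 genes tested, 1998 were called there, and 2920 with the block. In co-culture Cd93 rose by 0.50 ± 0.15 (edgeR adjusted p = 0.0373), while Itgax fell by -0.98 ± 0.23 (0.0139), Itgb2 by -0.93 ± 0.12 (0.000332) and C1qbp by -0.57 ± 0.13 (0.0134), which made 2 higher and 3 lower of 20. Of all genes tested in co-culture, 1502 were called, 710 of them higher. No other complement gene was called at 6 h of myelin in either culture by edgeR, and 1 in mono-culture with the block. Over all genes, 283 were called in mono-culture (668 with the block) and 28 in co-culture.

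In mono-cultured tumour cells 3 of 26 genes rose at 24 h and none fell. Of all 13603 genes tested there, 1424 (10.5%) were called, 498 of them higher. Colec12, a membrane collectin, was at 341, 336 and 360 CPM at 24 h and 219, 168 and 169 CPM at 0 h (log2 change 0.90 ± 0.12, edgeR adjusted p = 0.00122). Cd59a, which blocks the membrane attack complex, was at 10.9, 11.8 and 12.7 CPM at 24 h and 8.10, 9.05 and 6.91 CPM at 0 h (0.56 ± 0.15, adjusted p = 0.0291). Serping1, the gene of the C1 inhibitor, was the third. With the library number as a block 13 of 26 were called there, 12 of them higher, and 3, 2 and 2 were called in the co-culture comparisons at 24 h against 0 h and against mono-culture at 0 and 24 h, where the fit without it called none of the 26. Over all genes the block called 3793 in mono-culture, and 1263, 162 and 833 in those co-culture comparisons, in the same order. Between the cell types before myelin, 10 of 27 were higher and 9 lower in macrophages. That share is not far from the background, as 70% of all 14776 genes tested were called. C1s1, a classical pathway protease, was lower by -6.96 ± 0.79 (edgeR adjusted p = 8.68e-09), and Itgax (10.46 ± 0.96, adjusted p = 2.63e-10), Itgb2 (7.75 ± 1.65, 0.000173), Itgam (7.25 ± 1.30, 2.2e-05), Cd93 (7.22 ± 1.14, 3.57e-06) and C5ar2 (6.28 ± 0.68, 4.29e-09) were higher.

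Among the 8669 genes at or above the level set for the search, the genes whose log2 CPM ran most like each member over the 18 macrophage libraries included the other C1q chains. C1qb and C1qc had a Pearson correlation of 0.991, C1qa and C1qb of 0.956 and C1qa and C1qc of 0.952. Stab1 ran most like C1qa (0.965), and Rnf150 and Slc7a7 ran most like C1qb (0.982 and 0.967) and C1qc (0.970 and 0.961). C5ar1 was nearest to Slc12a7 (0.969), Actb (0.948) and Actg1 (0.942), C3ar1 to Dipk2a (0.926), Lcp1 (0.920) and Alg10b (0.916), and C3 to Ctnna1 (0.908), Capza2 (0.906) and Nadk (0.899). C5ar1 and C3ar1 correlated at 0.898, whereas C3 and the C1q chains stood at -0.14 to 0.02. Over the 18 tumour cell libraries the genes that ran most like Masp1 included Ets1 (0.915) and Mcm4 (0.911), and C4b was nearest to Lgals3bp (0.930), Adamts2 (0.928) and Laptm4a (0.917). The points of each correlation share libraries and groups, so these values are descriptions.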

How the data were processed

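Gene counts of 36 libraries were used as the authors deposited them, in 1 table of unnormalised counts for 29883 genes. Per the labels' protocols, sorted cells gave total RNA for oligo-dT primed, template-switching libraries, and amplification from low input adds spread. The genome build is mm10, per the submitters' processing notes, and the sources used here name no aligner or counting tool, so strand use is unknown. Groups and library numbers come from the titles. No library duplicated another, and all sample columns were used.

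Counts were tested with edgeR 4.0.16 (quasi-likelihood, robust) in R 4.3.3 after TMM scaling and filterByExpr. The package limma 3.58.1 was loaded, and no test came from it. Each cell type had 1 fit of 18 libraries, with 13165 genes in macrophages and 13603 in tumour cells. Between cell types, 1 fit of all 36 libraries (14776 genes) was used. In all, 17 comparisons were made. P-values were Benjamini-Hochberg adjusted over all genes tested, and genes were called under 0.05. Levels are CPM on TMM factors of all 36 libraries, while log2 changes come from the fits. Biological coefficients of variation were 0.164 (macrophages), 0.225 (tumour cells) and 0.201 (both). The scripts were tested on simulated data. Alternatives were RLE factors, no low-count filter, non-robust dispersions, the compared groups alone, DESeq2 1.42.0, the library number as a block, and each library left out. The fit on libraries 002 and 003 alone was added after seeing the data.

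The labels do not say that a number marks a shared source. The residuals of libraries with the same number correlated above 0.1 in every pair in all tumour cell comparisons (lowest 0.325). For macrophages they did so in every pair against 0 h (lowest 0.157) and between cultures at 0 h (0.288). These correlations do not show that the numbers pair libraries. Libraries of the same number that stand apart from the rest, as described with the results, can raise them too.

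The members and lists were chosen with earlier results of these data known. All 9 members are described. Other complement genes are named when called with a mean of at least 5 CPM in 1 group compared, at most 6 per comparison by size of change, and the rest are counted or named for completeness after their values were seen. Genes alike are the 3 with the highest Pearson correlation of log2 CPM (prior count 2, mean CPM of at least 10). Genes not in the table, such as Mbl1, Mbl2 and Cfd, were not analysed here. Some genes that these rules would name are counted but not reported by name here.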

Additional observations from a re-analysis of the deposited data

How the results depend on the processing

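In all alternatives no called change of a member turned its direction. The count of members called was the same or within 1.5 times under RLE factors and non-robust dispersions in all 17 comparisons. With no low-count filter it was 1 in mono-cultured macrophages at 24 h (2 otherwise), 1 between macrophage cultures at 0 h (3 otherwise) and 1 in mono-cultured tumour cells at 24 h (2 otherwise), where the multiple testing covers more genes. Genes called in all were then 1430, 1484 and 842 in the same order, against 1998, 1806 and 1424 otherwise. With the library number as a block it was 3 in co-cultured macrophages at 24 h (1 otherwise), 3 between macrophage cultures at 6 h (1 otherwise), 6 in mono-cultured tumour cells at 24 h (2 otherwise) and 1 between tumour cell cultures at 0 h (0 otherwise). Genes called in all rose as well with the block. In the same order they went from 1502 to 2598, 1308 to 2053, 1424 to 3793 and 0 to 162. Residuals of the same number did not all correlate above 0.1 between macrophage cultures at 6 h (lowest correlation -0.0197). There the block called C1qa (edgeR adjusted p = 0.0381) and C1qb (0.0395). The same held between macrophages and tumour cells (0.0578), where the block called C1qa (0.0425), and between macrophage cultures at 24 h (0.0661). Among the members, the block changed no call beyond these and those given with the results. With libraries 002 and 003 alone the count was 1 at 6 h in each macrophage culture (0 otherwise), 3 in co-cultured macrophages at 24 h, 1 and 2 between macrophage cultures at 0 and 24 h (3 and 5 otherwise), 6 in mono-cultured tumour cells at 24 h, 1 in co-cultured tumour cells at 24 h, and 1 and 2 between tumour cell cultures at 0 and 24 h (0 otherwise). Genes called in all went from 283 to 766 in mono-cultured and 28 to 112 in co-cultured macrophages at 6 h. In co-cultured macrophages at 24 h they went from 1502 to 1996. Between macrophage cultures they went from 1806 to 1646 at 0 h and 3689 to 2987 at 24 h. In tumour cells at 24 h they went from 1424 to 4828 alone and 107 to 3038 in co-culture. Between tumour cell cultures they went from 0 to 2121 at 0 h and 11 to 3248 at 24 h. In the compared groups alone it was 1 in mono-cultured and 4 in co-cultured macrophages at 24 h and 1 in mono-cultured tumour cells at 24 h. Genes called in all were 1061, 1963 and 1343 there, against 1998, 1502 and 1424 otherwise. DESeq2 gave 1 in mono-cultured macrophages at 6 h (C5ar1, adjusted p = 0.0248) and 2 in co-cultured macrophages at 24 h. Its calls over all genes were 602 and 1869 there, against 283 and 1502 by edgeR. The fits on libraries 002 and 003 and on the compared groups hold fewer libraries. What moved the counts in any of these settings was not tested.

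With 1 library left out, the count ranged from 0 to 1 in mono-cultured macrophages at 6 h, 1 to 3 there at 24 h, 0 to 2 in co-cultured macrophages at 24 h, 1 to 3, 1 to 4 and 5 to 5 between macrophage cultures at 0, 6 and 24 h, 0 to 2 in mono-cultured tumour cells at 24 h, and 6 to 7 between cell types, and was 0 in the others. Counts over all genes moved by over 1.5 times in 13 of 17 comparisons with the block, 10 with libraries 002 and 003, 9 with DESeq2 and 9 in the compared groups alone. Low counts limit the values of Cfb, of C4b in macrophages, and of C1q and C5ar1 in tumour cell libraries 001. Of the latter, the co-culture library at 6 h had the highest total of all, at 15319104 counts.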
